A study of Mus musculus with 5 samples.

Results

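The genes of the epithelial-to-mesenchymal transition (EMT) were examined in 5 bulk RNA-seq libraries of mouse mammary luminal cells. The 10 genes were chosen by name among the 24319 genes used and all 10 were found, 1 row each. They are the epithelial adhesion genes *Cdh1* and *Epcam*, the mesenchymal genes *Cdh2*, *Vim* and *Fn1*, and the transcription factor genes *Snai1*, *Snai2*, *Zeb1*, *Zeb2* and *Twist1*. Luminal cells, which line the mammary ducts and alveoli, were sorted as live CD24-high, CD29-low cells after blood and endothelial cells had been depleted. By genotype label, replicates 1 to 3 are wild type and replicates 4 and 5 are *Brca1* knockout, all of mixed strain, whereas the study describes its luminal cells as BRCA1-deficient.

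The study's knockout mice carried floxed *Brca1* alleles and Cre under the MMTV promoter, which is active in mammary epithelium, on a mixed C57BL/6 and 129/Sv background. Its luminal cells came from virgin or pregnant females of 3 to 4 months, and neither the stage nor the alleles of the mice labelled wild type are given for each library. The gate described for bulk sequencing names no marker of Cre activity. The sources do not say that each library came from a separate mouse, so the tests measure only the spread between these libraries. The extraction text in the labels speaks of frozen tumors, while the source name gives luminal cells.

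EMT is a program in which epithelial cells loosen their cell-to-cell contacts and take on a motile, fibroblast-like form. E-cadherin is classically replaced by N-cadherin, vimentin filaments and fibronectin matrix appear, and zinc finger factors of the Snail and Zeb families and the helix-loop-helix factor Twist repress epithelial genes. The same mesenchymal genes are used by fibroblasts, endothelial cells and leukocytes of a normal gland, and Snail, Zeb and Twist factors act in those cells and in the basal layer too. The study named its tumor subgroups partly after epithelial and mesenchymal markers.

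Snail and Zeb proteins bind the E-box letters CACCTG, read as CAGGTG on the other strand. The 250 bases before the RefSeq start of *Epcam*, *Snai1* and *Vim* (GRCm38.p6, plus strand) are printed because they are a uniformly high epithelial gene, one of the factors, and the mesenchymal gene with the largest SD of log2(FPKM + 1). Capitals mark CACCTG or CAGGTG and, in *Vim*, the TATA box letters TATAAA.
Epcam chr17:87635729-87635978: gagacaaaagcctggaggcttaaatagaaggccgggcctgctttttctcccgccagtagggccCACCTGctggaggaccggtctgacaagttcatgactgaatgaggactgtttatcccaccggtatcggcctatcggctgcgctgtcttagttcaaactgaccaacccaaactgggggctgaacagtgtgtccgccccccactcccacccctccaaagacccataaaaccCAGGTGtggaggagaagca
Snai1 chr2:167537945-167538194: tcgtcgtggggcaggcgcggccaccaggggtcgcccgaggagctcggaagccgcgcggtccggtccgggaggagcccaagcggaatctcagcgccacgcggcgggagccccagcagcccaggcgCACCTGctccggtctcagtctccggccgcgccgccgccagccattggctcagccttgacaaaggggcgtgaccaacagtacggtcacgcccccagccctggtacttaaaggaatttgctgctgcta
Vim chr2:13574061-13574310: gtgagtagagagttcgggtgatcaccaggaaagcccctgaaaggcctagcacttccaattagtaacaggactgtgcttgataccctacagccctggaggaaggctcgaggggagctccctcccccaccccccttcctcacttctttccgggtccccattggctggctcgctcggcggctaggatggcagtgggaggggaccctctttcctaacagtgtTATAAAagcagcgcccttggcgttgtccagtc

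The *Epcam* window held 2 such E-boxes, beginning at -187 and -19 from the start, and the *Snai1* window held 1, at -126. The *Vim* window held none, and its TATAAA began at -32. Of 32851 RefSeq promoter windows of this length, 17.2% held at least 1 of these E-boxes, 2.06% held 2 or more and 7.59% held TATAAA. None of the 4 *Zeb2* windows and the *Twist1* window held CACCTG or CAGGTG. A match gives letters only and is not a measured binding site.

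*Brca1*, the gene named in the labels, was at 1.30, 1.32 and 0.234 FPKM (fragments scaled to transcript length and to library size) in replicates 1 to 3 against 1.20 and 1.34 FPKM in replicates 4 and 5, so its level did not separate the labels. These values cover the whole gene, and deletion of the floxed part was not tested. The luminal keratin gene *Krt8* was between 2240 and 3650 FPKM in all 5 libraries. The 12 basal markers summed to between 39.2 and 178 FPKM, with *Krt14* (3.65 to 104 FPKM) and *Itgb4* (16.8 to 24.3 FPKM) the highest, and the basal factor gene *Trp63* was at most 0.311 FPKM. Replicates 2 and 3, both labelled wild type, stood apart by RNA of other cell types. The 14 immune markers summed to 380 FPKM in replicate 2 and 79.1 FPKM in replicate 3, against 5.69 to 12.2 FPKM in the others. The 12 fibroblast markers summed to 152 FPKM and 253 FPKM, against 15.1 to 21.8 FPKM. Of the replicate 3 sum, the gelsolin gene *Gsn* alone gave 147 FPKM. Single fibroblast markers differed in order between replicates 2 and 3. *Col1a1* was at 34.4 and 10.9 FPKM there, and *Dcn* at 10.3 and 51.3 FPKM. The 10 endothelial markers summed to 12.7 FPKM and 15.1 FPKM, against 1.37 to 2.2 FPKM. Replicate 3 also stood apart within the luminal markers, by genes of hormone-sensing cells. The progesterone receptor gene *Pgr* was at 27.1 FPKM there and at 0.111 to 0.715 FPKM elsewhere, and the prolactin receptor gene *Prlr* at 148 FPKM against 5.61 to 10.3 FPKM. The files give no read totals. From the spacing of low values, depth was estimated at between 6290000 fragments (replicate 1) and 30470000 fragments (replicate 3).

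*Epcam* and *Cdh1* were the highest of the 10 genes in each library. *Epcam* (ENSMUSG00000045394, chromosome 17 of mm10, 87635979 to 87651129) encodes an epithelial cell adhesion molecule. Its level was 695, 570 and 1062 FPKM in replicates 1 to 3 and 811 and 616 FPKM in replicates 4 and 5, which places its mean at rank 127 of 24319 genes. *Cdh1* (ENSMUSG00000000303, chromosome 8, 106603351 to 106670246) encodes E-cadherin, the cadherin of epithelial adherens junctions. Its level was 180, 214 and 260 FPKM under the wild-type label and 201 and 218 FPKM under the knockout label, rank 313. The highest library was 1.45 times the lowest for *Cdh1* and 1.86 times for *Epcam*, and the labels overlapped for both. *Epcam* was highest in replicate 3, as were *Krt8* and *Cdh1*, and stayed between 0.254 and 0.335 of the *Krt8* level in all 5 libraries.

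**Figure D1:**
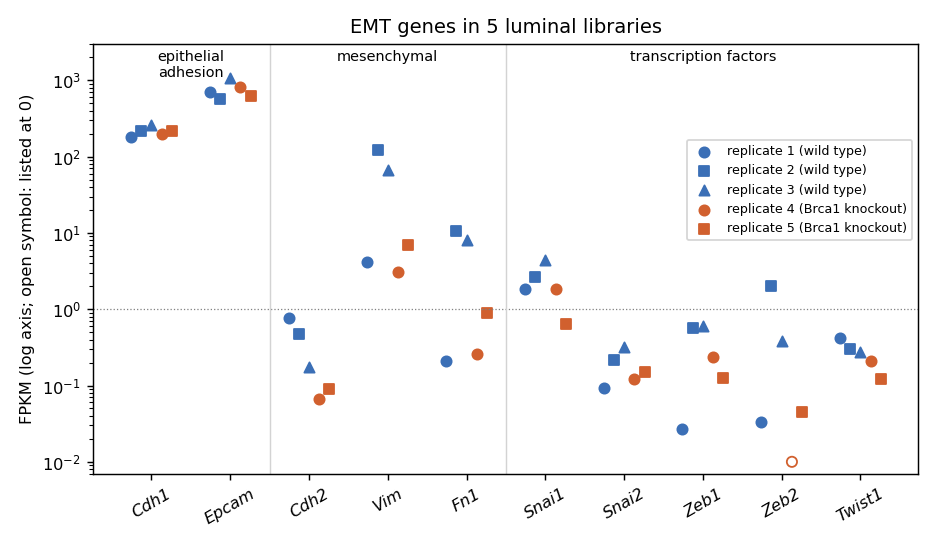
FPKM of the 10 EMT genes on a log axis, 1 symbol per library, blue for the label wild type and orange for *Brca1* knockout, with 1 FPKM dotted and an open symbol for *Zeb2* listed at 0. *Cdh1* and *Epcam* lie between 180 and 1062 FPKM in all libraries, while *Vim* and *Fn1* divide into a high pair (replicates 2 and 3) and a low group of 3.

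*Vim* encodes vimentin, the intermediate filament protein of mesenchymal cells. The gene (ENSMUSG00000026728, chromosome 2, 13573927 to 13582826) reached 4.22, 121 and 67.3 FPKM in replicates 1 to 3, against 3.10 and 6.95 FPKM in replicates 4 and 5. Replicates 2 and 3 were far above the rest, and replicate 1 lay between the 2 libraries labelled knockout. The highest library was 39.0 times the lowest. *Fn1* (ENSMUSG00000026193, chromosome 1, 71585520 to 71653200), which encodes the matrix protein fibronectin, was at 0.208, 10.7 and 8.02 FPKM in the first label and 0.263 and 0.896 FPKM in the second. It had the same high pair of libraries, with a 51.3-fold span, and its mean exceeded 1 FPKM only through them.

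The ratio of the cadherins differed from this pattern. *Cdh2* (ENSMUSG00000024304, chromosome 18, 16588877 to 16809246) encodes N-cadherin, and measured 0.776, 0.475 and 0.172 FPKM in replicates 1 to 3, against 0.0668 and 0.0909 FPKM in replicates 4 and 5. Its highest library was replicate 1, where *Vim* and *Fn1* were low. The values rest on an estimated 23.7, 29.9, 25.4, 2.06 and 9.51 fragments of the longest coding transcript. The E-cadherin gene was at 231 to 3004 times the level of the N-cadherin gene, in FPKM within a library. Against *Vim*, *Cdh1* was 42.6, 64.9 and 31.3 times as high in replicates 1, 4 and 5, but only 1.77 times in replicate 2 and 3.87 times in replicate 3.

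Of the factors, *Snai1* was the highest. It encodes Snail, a zinc finger repressor of *Cdh1* (ENSMUSG00000042821, chromosome 2, 167538195 to 167542814, 1 transcript of 1621 bases). Its level was 1.84, 2.69 and 4.42 FPKM under the wild-type label and 1.83 and 0.632 FPKM under the knockout label. The labels did not overlap, but replicates 1 and 4 were nearly equal, and each rests on about 18.8 fragments. *Snai2* (ENSMUSG00000022676, chromosome 16, 14705852 to 14709385) encodes Slug, a Snail family factor of basal mammary cells. It was at 0.0929, 0.219 and 0.323 FPKM against 0.123 and 0.151 FPKM, or an estimated 1.18 to 19.9 fragments. *Snai1* exceeded *Snai2* in all 5 libraries, by 4.18 to 19.8 times.

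The Zeb genes encode large zinc finger repressors of epithelial genes. *Zeb2* (ENSMUSG00000026872, chromosome 2, 44983632 to 45117395) measured 0.0332, 2.03 and 0.389 FPKM in replicates 1 to 3, was listed at 0 in replicate 4 and was at 0.0450 FPKM in replicate 5. Replicate 2 stood above the others, as it did for the summed immune markers, of which *Lyz2* alone gave 213 FPKM there. The immune markers *Cd79a* and *Ms4a1* were instead highest in replicate 3, at 7.7 and 2.48 FPKM, against 0.507 and 0 FPKM in replicate 2. The antisense gene *Zeb2os* overlaps *Zeb2* and was at most 0.583 FPKM, also in replicate 2. Reads of both cannot be told apart without strand. *Zeb1* (ENSMUSG00000024238, chromosome 18, 5591860 to 5775467) was at 0.0268, 0.568 and 0.609 FPKM against 0.239 and 0.126 FPKM. *Zeb1* was thus about equal in replicates 2 and 3, while *Zeb2* was not: *Zeb1* was 0.279 of *Zeb2* in replicate 2 and 1.57 times *Zeb2* in replicate 3. *Twist1* (ENSMUSG00000035799, chromosome 12, 33957671 to 33959829) encodes a helix-loop-helix factor of the mesenchyme. It was at 0.419, 0.301 and 0.278 FPKM against 0.208 and 0.123 FPKM, which rests on an estimated 2.16 to 13.8 fragments.

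By mean log2(FPKM + 1), the order was *Epcam* at 9.52 ± 0.36 (SD, n = 5), *Cdh1* at 7.74 ± 0.20, *Vim* at 4.09 ± 2.26, *Fn1* at 1.65 ± 1.58 and *Snai1* at 1.61 ± 0.63. *Zeb2* followed at 0.44 ± 0.68, then *Zeb1* at 0.37 ± 0.29, *Cdh2* at 0.37 ± 0.32, *Twist1* at 0.34 ± 0.13 and *Snai2* at 0.24 ± 0.11. *Fn1* and *Snai1* did not differ beyond their spread (0.04 ± 1.25), and neither did any neighbours from *Zeb2* down to *Snai2*. The epithelial pair exceeded the mean of the other 8 genes by 7.49 ± 0.63, and by 6.47 to 8.07 in single libraries. Of the 10 genes, *Cdh2*, *Snai2*, *Zeb1* and *Twist1* stayed under 1 FPKM in each library.

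Replicates 2 and 3 were the highest pair of libraries for 6 of the 10 genes, namely *Vim*, *Fn1*, *Snai1*, *Snai2*, *Zeb1* and *Zeb2*. Among 14988 genes that averaged 0.1 FPKM or more, 13.1% had this order. So did 12 of the 12 fibroblast markers, 12 of the 14 immune markers and 9 of the 10 endothelial markers, but 1 of the 12 basal markers. It also held for 4 of the 16 luminal, 3 of the 8 pericyte, 3 of the 8 adipocyte and 2 of the 8 Schwann markers. The luminal ones were *Krt7*, *Pgr*, *Aldh1a3* and *Cd14*. *Krt7* was at 72.4 and 298 FPKM in replicates 2 and 3, against 24.1 to 41.1 FPKM. The highest immune marker was *Lyz2*, a macrophage lysozyme gene, at 213 FPKM in replicate 2 and 28.7 FPKM in replicate 3 against 1.04 to 4.53 FPKM. The highest fibroblast marker by mean was *Gsn*, the gelsolin gene, at 31.3 and 147 FPKM against 6.91 to 13.3 FPKM. Replicates 1 and 2 were instead the highest pair for *Cdh2* and *Twist1*. The basal markers *Krt5*, *Krt14*, *Acta2*, *Mylk*, *Myh11*, *Cnn1*, *Tagln* and *Actg2* shared that pair, but *Krt17*, *Trp63*, *Oxtr* and *Itgb4* did not. The share of all genes with replicates 1 and 2 highest was not computed. *Acta2* was at 8.95 and 14.4 FPKM in replicates 1 and 2, against 1.93 to 3.52 FPKM. The part of other cells' RNA, basal cells included, in the levels of the EMT genes was not tested. In bulk libraries, fewer cells of a type and less RNA per cell cannot be told apart. Without replicates 2 and 3, *Vim* spanned 3.10 to 6.95 FPKM, *Fn1* 0.208 to 0.896 FPKM and *Zeb2* 0 to 0.0450 FPKM.

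**Figure D2:**
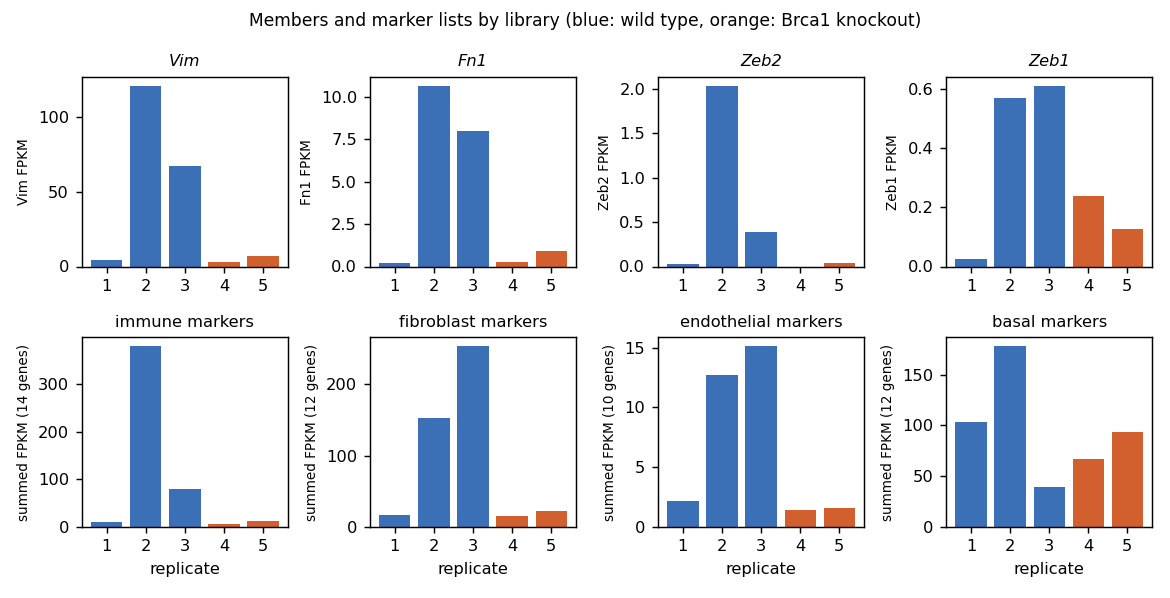
Bars give FPKM of *Vim*, *Fn1*, *Zeb2* and *Zeb1* (top) and the summed FPKM of 4 marker lists (bottom) in replicates 1 to 5, each axis starting at 0, blue for wild type and orange for *Brca1* knockout. *Zeb2* and the summed immune markers are highest in replicate 2. The summed fibroblast markers are highest in replicate 3, where *Gsn* alone gave 147 FPKM. The summed basal markers, at 39.2 FPKM, are lowest in replicate 3.

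The genes most like each EMT gene over the 5 libraries were taken by the smallest root mean square difference of log2(FPKM + 1), each centred on its mean, among the 11481 genes that averaged 1 FPKM or more. For *Fn1* these were *Coro1a* (0.08), *Cd52* (0.20) and *Procr* (0.25). For *Vim* they were *Srgn* (0.27), *Laptm5* (0.37) and *Lyz1* (0.41). *Coro1a* and *Laptm5* are on the immune marker list. *Coro1a* measured 0.205, 11 and 7.80 FPKM in replicates 1 to 3, against 0.102 and 0.781 FPKM in replicates 4 and 5, close to *Fn1* library by library. *Snai1* was nearest to *Bmp1* (0.08), *Ehd2* (0.09) and *Kctd11* (0.10), *Cdh1* to *AI661453* (0.03) and *Epcam* to *Bbs9* (0.04). These rankings are a description and carry no test.

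Between the labels, no EMT gene passed the test. The limma fit covered the 11481 genes averaging 1 FPKM or more, among them 5 of the 10 EMT genes (*Cdh1*, *Epcam*, *Vim*, *Fn1* and *Snai1*). It called 0 genes (0.0%) at an adjusted p of 0.05, and 372 genes (3.24%) had an unadjusted p under 0.05, none of them an EMT gene. The difference of *Cdh1*, knockout minus wild type, was -0.04 (log2, 95% interval -0.61 to 0.53, adjusted p = 0.985), and that of *Epcam* was -0.08 (-0.93 to 0.76, adjusted p = 0.979). Both means were close together, 7.71 and 7.76 for *Cdh1* and 9.47 and 9.55 for *Epcam*, and their sign turned under other settings.

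*Vim* had a difference of -2.62 with a standard error of 1.38 (interval -6.10 to 0.85, adjusted p = 0.924). *Fn1* had -1.70 with a standard error of 1.03 (-4.29 to 0.89), and *Snai1* had -0.84 with a standard error of 0.40 (-1.85 to 0.17), both with the same adjusted p. *Fn1* passed the minimum only through replicates 2 and 3, both labelled wild type, so its difference is a description only. The difference of *Snai1* was -0.44 without replicate 5. Without replicates 2 and 3, leaving 1 library labelled wild type that was assumed to vary like the others, the difference was 0.13 for *Vim* and 0.36 for *Fn1*, and that of *Snai1* was -0.40. *Cdh1* and *Epcam* then differed by 0.22 and 0.02, and the adjusted p of the 5 genes from limma lay between 0.761 and 0.991.

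**Figure D3:**
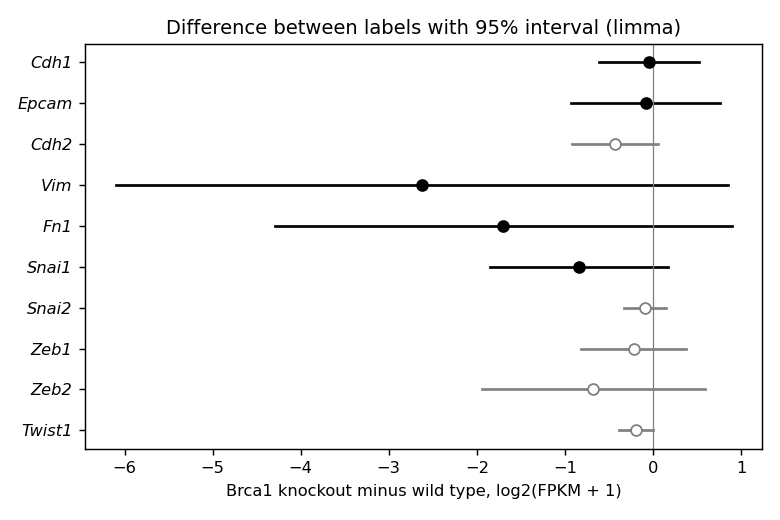
Difference of mean log2(FPKM + 1), *Brca1* knockout (n = 2) minus wild type (n = 3), with the 95% interval from limma, filled for the 5 genes averaging 1 FPKM or more and open for the other 5, fitted without a minimum. All 10 points lie below 0, and the interval of *Vim* reaches from -6.10 to 0.85.

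The means of all 10 EMT genes were lower under the knockout label. So were those of 3962 of the 11481 genes tested, a set that holds only 5 of the 10 EMT genes. The median of all genes tested was 0.11 higher under that label. It depended on scaling, at 0.01 with median-of-ratios scaling and 0.039 with quantile scaling, and was 0.011 without a minimum. *Cdh2*, *Snai1* and *Twist1* were higher in each library labelled wild type than in either labelled knockout, and no EMT gene had the opposite order. Of the 14988 genes averaging 0.1 FPKM or more, 7.13% were higher in all libraries labelled wild type. Among those averaging 0.1 to 1 FPKM, as *Cdh2* and *Twist1* did, 11.6% had that order and 10.4% the opposite one. Among the 11481 genes averaging 1 FPKM or more, as *Snai1* did, 23.3% had either order. Most of these had knockout higher, the opposite of *Snai1*. The exact permutation test (two-sided) gave p = 0.2 for each of the 3 genes, the smallest p that 3 libraries against 2 allow. Fitted without a minimum over 19352 genes, with 0 genes called (0.0%), *Twist1* had a difference of -0.19 (interval -0.384 to -0.002, unadjusted p = 0.0482) and *Cdh2* of -0.43 (-0.92 to 0.06), both with an adjusted p of 0.893 from limma. On this scale such low genes change little whatever their ratio.

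Other genes of the same process were read from lists of epithelial, mesenchymal, regulatory and TGF-beta pathway genes, and 0 of their tested members passed the test in either direction. Of the epithelial list, 32 of 33 genes reached the minimum, with a median difference of -0.06. *Cldn4*, a tight junction claudin gene, was at 416 to 892 FPKM and *Cd24a*, whose product was used in the sort, at 411 to 554 FPKM. *Dsp*, the gene of the desmosome protein desmoplakin, varied most, at 3.32, 6.27 and 17.3 FPKM against 1.71 and 1.11 FPKM. Its unadjusted p was 0.0311 and its adjusted p 0.924. *Esrp1* and *Grhl2*, an epithelial splicing factor and a transcription factor gene, were at 53.0 to 83.7 FPKM and 6.37 to 10.5 FPKM.

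Of the mesenchymal list, 20 of 30 genes reached the minimum. Some did so only through replicates 2 and 3, such as the receptor kinase gene *Axl* at 0.216, 5.24 and 1.79 FPKM against 0.291 and 0.260 FPKM. The median difference of the 20 genes is therefore a description only. It was -0.97, and single libraries moved it, to -1.60 without replicate 1 and to -0.58 without replicate 2. Without replicates 2 and 3 it was 0.14, and over all 30 genes, fitted without a minimum, it was -0.72. *Col1a1*, a fibrillar collagen gene, was at 0.867, 34.4 and 10.9 FPKM against 0.694 and 3.30 FPKM. *Mmp14*, a membrane metalloprotease gene, was instead highest in replicate 3, at 55.2 FPKM against 2.26 to 9.94 FPKM. Some genes of this list were high in each library: *Thbs1*, which encodes thrombospondin, was at 271, 268 and 59.5 FPKM against 313 and 325 FPKM, and *Itgav*, an integrin chain gene, at 21.6 to 89.5 FPKM.

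**Figure D4:**
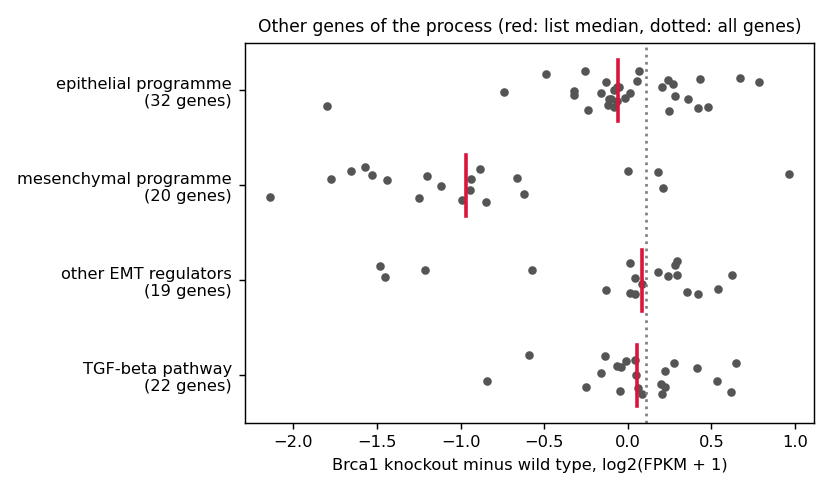
Each point is a gene of 4 lists that averaged 1 FPKM or more, placed by its difference of log2(FPKM + 1), *Brca1* knockout minus wild type, with the list median in red and the median of all genes dotted at 0.11. The mesenchymal list has its median at -0.97, and the other 3 lie between -0.06 and 0.09.

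Of 26 other regulators, 19 reached the minimum, with a median difference of 0.09, or -0.03 with median-of-ratios scaling. *Elf5*, a luminal factor gene known to restrain *Snai2*, was at 338, 258 and 102 FPKM against 244 and 288 FPKM. *Klf4* was at 195 FPKM in replicate 3 and at 46.4 to 86.7 FPKM elsewhere, and *Foxa1*, a gene of hormone-sensing luminal cells, at 33.6 FPKM there and at most 2.01 FPKM elsewhere. The dimerisation inhibitor genes *Id1* and *Id3* were also highest in replicate 3, at 11.4 and 17.4 FPKM. Replicate 3 thus differed from replicate 2 in regulators while sharing high *Vim* and *Fn1*. *Twist2* stayed at or under 0.275 FPKM and *Prrx1* at or under 0.543 FPKM.

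TGF-beta is a classical inducer of EMT. Of 26 genes of its pathway, 22 reached the minimum, with a median difference of 0.06. Its sign was not stable, since it was -0.10 without replicate 1, 0.22 without replicate 3 and -0.05 with median-of-ratios scaling. *Tgfb1* was at 5.38, 12.6 and 24.6 FPKM against 7.59 and 7.76 FPKM, with the high pair seen for *Vim*. *Tgfb3*, the most abundant ligand gene, was lowest in replicate 2, at 33.1, 17.7 and 39.1 FPKM against 43.3 and 47.2 FPKM. *Smad4*, the common mediator, was at 24.8 to 35.0 FPKM, and *Skil*, an inhibitor of Smad signalling, was highest in replicate 3, at 59.0 FPKM against 23.3 to 35.8 FPKM.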

How the data were processed

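Reads of 5 luminal libraries were aligned by the authors to mm10 with TopHat2 (2.0.13 in the submitters' processing notes, which also name Trimmomatic 0.35 and Cufflinks 2.2.1, while the paper's text gives another TopHat release). The deposited FPKM values come from Cufflinks. The gene annotation is not given in the sources used here, and the library kit does not mark strand. Of 24346 rows, 27 with gene names turned into dates were left out. Values were analysed as log2(FPKM + 1), which understates changes of low genes. For genes averaging 1 FPKM or more, labels were compared in R 4.3.3 by the moderated fit of limma 3.58.1 with an intensity trend, with Benjamini-Hochberg adjustment at 0.05, and single genes with an exact permutation test (two-sided, scipy 1.17.1). The fit was tested on simulated data.

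Depth was estimated from the spacing of FPKM times length in 873 genes with 1 GENCODE M21 transcript over 3000 bases. Of the low values, 52.2% to 58.2% lay within 0.15 of a whole multiple, where 30% of evenly spread values would. The spacing was chosen to fit these same values, so the comparison with 30% is no test of it. No counts were recovered, and fragment numbers are rough. In 3 libraries a second spacing scored nearly as well, and the widest was taken. Positions are those of GENCODE M21 (GRCm38, which is mm10), and promoters those of RefSeq GRCm38.p6, read for 5 of the 10 genes. Windows of *Cdh2* and *Zeb1* were left out, and none was held for *Cdh1*, *Fn1* and *Snai2*.

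The 10 genes, the process and marker lists and the naming rule (the 10 genes, the highest and most variable genes of each list, the 3 genes most like each member) were chosen with earlier results of these data known. *Trp63*, *Pgr*, *Prlr*, *Axl*, *Esrp1*, *Grhl2*, *Twist2* and *Prrx1* were named after their values were seen. Marker lists were luminal, basal, fibroblast, immune, endothelial, pericyte, adipocyte and Schwann. The alternatives were a pseudocount of 0.1, median-of-ratios and quantile scaling, other minimums, limma without a trend or with array weights, and each replicate left out. Leaving out replicates 2 and 3 together was chosen after seeing the data.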

Additional observations from a re-analysis of the deposited data

How the results depend on the processing

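No EMT gene and no gene of the 4 process lists was called under the alternatives in which it was fitted. *Cdh2*, *Snai2*, *Zeb1*, *Zeb2*, *Twist1* and the list genes averaging under 1 FPKM were fitted only without a minimum and, from a mean of 0.1 FPKM, with that minimum. The number of genes called in the whole table was 0 in the reported fit, 1 with array weights, 0 to 18 with each replicate left out (18 without replicate 4 and 4 without replicate 5, where the remaining library labelled knockout is assumed to vary like the others, and 2 without replicate 1) and 3 without replicates 2 and 3. *Cdh1* and *Epcam* changed sign. The difference of *Cdh1* was 0.06 with quantile scaling, 0.22 without replicates 2 and 3 and -0.175 to 0.091 with each replicate left out. That of *Epcam* was 0.27 with array weights, 0.023 without replicates 2 and 3 and -0.28 to 0.17 with each left out. *Vim* (0.13) and *Fn1* (0.36) changed sign without replicates 2 and 3, and ranged from -4.00 to -1.73 and from -2.73 to -1.09 with each replicate left out, lowest without replicate 1 and nearest to 0 without replicate 2. *Snai1* ranged from -1.24 to -0.44 and was -1.29 with a pseudocount of 0.1, and the mesenchymal median was -1.50 with array weights. The TGF-beta median was -0.015 with quantile scaling and 0.32 without replicates 2 and 3. The gap between the epithelial pair and the other 8 genes was 8.96 with a pseudocount of 0.1 and 7.35 to 7.75 with each replicate left out. EMT gene values under 1 FPKM in replicates 1 and 4 rest on an estimated 0 to 23.7 fragments, and no detection limit was tested. No paired analysis was possible because the labels share no replicate number.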

Other observations

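The summed markers of 3 further cell types varied less than *Vim*, but each sum rested mostly on 1 gene, since 7 of the 8 adipocyte markers, 5 of the 8 pericyte markers and 5 of the 8 Schwann markers stayed under 1 FPKM in each library. The 8 pericyte markers summed to 14.7 to 25.2 FPKM, most of it *Notch3* (9.69 to 19.1 FPKM), and the 8 adipocyte markers to 18.9 to 23.8 FPKM, most of it *Lipe* (18.0 to 22.98 FPKM). The 8 Schwann markers summed to 93.7 to 146 FPKM, most of it *Sox10*, a neural crest factor gene that measured 119, 87.6 and 71.8 FPKM in replicates 1 to 3 and 113 and 132 FPKM in replicates 4 and 5. *Sox10* was lowest in replicates 2 and 3, the pair in which *Vim* was highest.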
